A study of Mus musculus with 8 samples.

Results

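Toll-like receptors and the adaptors and kinases that carry their signal were followed in B16-OVA cells, which are mouse melanoma cells of the B16F10 line carrying the model antigen ovalbumin. The genes were taken by symbol from the deposited expression table: the receptors Tlr2, Tlr3 and Tlr4, the adaptors Myd88, Tirap and Ticam1, the kinases Irak1, Irak2 and Irak4, and the ubiquitin ligase gene Traf6. All 10 were found among the 57353 rows of the table. RNA from 8 samples was sequenced, 4 in each of 2 groups. Control cells were left untreated. HMF cells took up magnetic rod-shaped micromotors over 24 h and were then placed in a high-frequency magnetic field. RNA was taken 6 h after treatment. The study asked what follows in tumour cells when micromotors inside them are driven mechanically. No group received the micromotors or the field alone. Every difference below is between untreated cells and cells given both, and the part of each cannot be told apart. The genotype is given as wild type for all 8 samples, and no source used here says whether the samples of a group were separate cultures. The p-values therefore reflect library-to-library spread, and that spread may be technical.

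Toll-like receptors recognise microbial molecules and material released from damaged cells. TLR2 and TLR4 sit at the cell surface and read lipoproteins and lipopolysaccharide, while TLR3 sits in endosomes and reads double-stranded RNA. Most receptors recruit MyD88, which assembles the kinases IRAK4, IRAK1 and IRAK2 and passes the signal through TRAF6 to NF-kB and the MAP kinases. TLR3 uses TRIF instead, the product of Ticam1, which leads to TBK1 and IRF3 and so to type I interferon. TLR4 can use either adaptor, and TIRAP bridges MyD88 to TLR2 and TLR4.

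Total counts ran from 13973961 to 19295358 per library. Expression is given as CPM, counts scaled to a common library size after TMM normalisation, and, where genes are compared with each other, as the deposited FPKM, which is also divided by gene length. Across genes, libraries of one group correlated at a Pearson r of 0.984 to 0.993 and libraries of different groups at 0.959 to 0.976 (log2 CPM). With 15082 genes in the test, 26.7% passed an adjusted p of 0.05 (edgeR quasi-likelihood test, Benjamini-Hochberg adjustment over all tested genes), 13.7% rising and 13.0% falling. Rises made up 51.4% of these calls, 41.7% with library size alone as scaling and 41.3% with limma on log2(FPKM + 1). HMF 4 was the highest of the HMF libraries for 5 of the 10 genes (Tlr2, Tlr3, Tlr4, Myd88 and Irak1), and the log2 fold change of each without it is given beside its result.

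The melanoma cells expressed 3 of the 12 mouse Toll-like receptor genes. Tlr2, Tlr3 and Tlr4 were at an FPKM of at least 1 in all 8 libraries, and no other receptor reached that level in any library. Together they made up 94.98% to 96.4% of the summed receptor FPKM in Control and 98.4% to 99.4% in HMF. Tlr1, which pairs with TLR2 to read triacylated lipoproteins, had 7 to 34 counts per library and an FPKM of 0.148 to 0.684. Tlr6, the other partner of TLR2, had 0 to 4 counts. Tlr12, which reads profilin of protozoa in mice, had 5 to 17 counts, and Tlr5, the flagellin receptor, had 1 to 10. Tlr7 was counted in 2 libraries, with 4 counts in Control 4 and 5 in HMF 4, and Tlr13 in 2 libraries, with 4 counts in Control 3 and 2 in HMF 4. Tlr8, Tlr9 and Tlr11 had no count in any library. A count of 0 allows a level of up to 3 counts of the library. Over the total count, without TMM scaling, that is 0.155 CPM in HMF 4, the deepest library, and 0.215 CPM in Control 2, the shallowest. These limits cover counting error only.

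**Figure D1:**
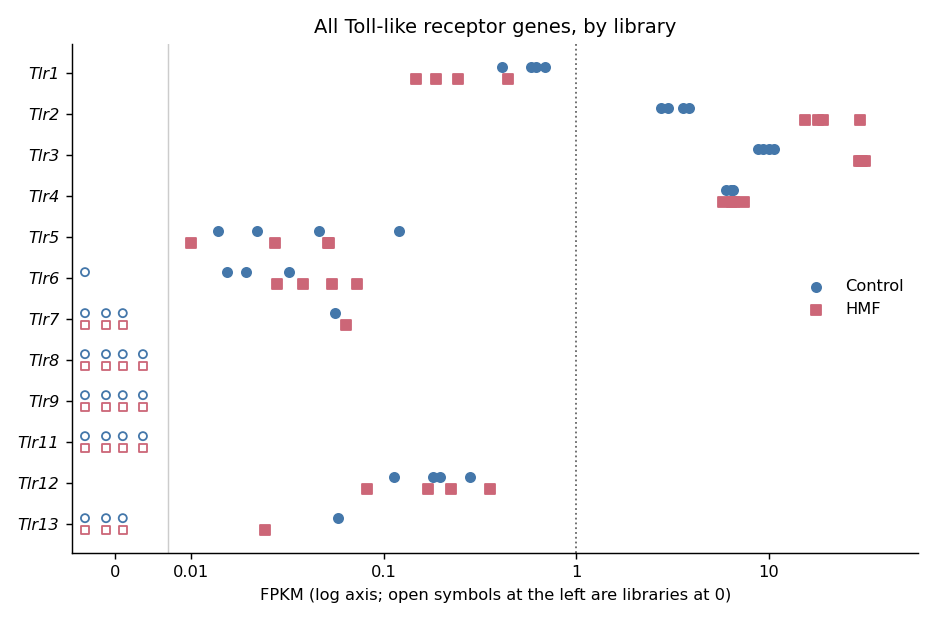
FPKM of the 12 Toll-like receptor genes in each library, on a log axis, with Control as blue circles, HMF as red squares and libraries at 0 as open symbols at the left. Tlr2, Tlr3 and Tlr4 lie to the right of the dotted line at an FPKM of 1 in all 8 libraries, Tlr2 and Tlr3 are further right in HMF, and Tlr4 overlaps between the groups.

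Tlr2 rose most among the 10 genes. Its level was 11.5, 8.24, 8.85 and 10.6 CPM in Control 1 to 4 and 46.9, 59.3, 54.6 and 93.2 CPM in HMF 1 to 4. Every HMF library lay above every Control library, and HMF 4 stood well above the other HMF libraries. The log2 fold change was 2.69 ± 0.21 (SE, n = 4 per group; adjusted p = 4.94e-06), a 6.46-fold rise, and without HMF 4 it was 2.44 (adjusted p = 2.79e-08). Among all risen genes, 100 rose by as much as Tlr2 or more, itself included.

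Tlr3, the double-stranded RNA receptor, rose with little spread. It went from 51.7, 54.9, 47.7 and 45.2 CPM in Control 1 to 4 to 161.5, 160.5, 154.1 and 170.6 CPM in HMF 1 to 4. The HMF libraries lay close together and all above Control. The log2 fold change was 1.70 ± 0.07 (SE, n = 4 per group; adjusted p = 3.47e-08), a 3.25-fold rise, and without HMF 4 it was 1.67.

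Tlr4 did not pass the test. Its level was 36.0, 35.5, 34.6 and 32.7 CPM in Control 1 to 4 and 32.6, 36.7, 36.7 and 42.6 CPM in HMF 1 to 4. The groups overlapped, with the lowest and the highest of the 8 values both in HMF. The log2 fold change was 0.10 ± 0.09 (SE; adjusted p = 0.429), with a 95% interval of -0.09 to 0.29, and without HMF 4 it was 0.03 (adjusted p = 0.845).

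The balance of the receptors shifted accordingly. The FPKM of the 12 receptor genes summed to 20.2 ± 0.874 in Control libraries and 58.3 ± 7.71 in HMF libraries (SD, n = 4), and the groups did not overlap (19.2 to 21.2 against 52.4 to 69.6). Tlr2 made up 16.4% ± 2.52 of that sum in Control and 34.9% ± 5.84 in HMF, while Tlr4 made up 31.4% ± 0.625 and 11.3% ± 0.587. Tlr3 held the largest share in all libraries, at 48.0% ± 2.39 and 52.9% ± 5.35. The ratio of Tlr3 to Tlr2 FPKM was 2.59, 3.85, 3.12 and 2.46 in Control 1 to 4 and 1.99, 1.57, 1.63 and 1.06 in HMF 1 to 4. It was lower in all HMF libraries, by 0.96 on the log2 scale in the mean (fell by 0.96; exact permutation test over libraries, two-sided, p = 0.0286, also 0.0286 after adjustment over the 2 ratios tested). That is the smallest p that 70 arrangements of 4 and 4 libraries can give.

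The partners of the receptors differed in presence and in change. Unc93b1, which carries TLR3 and other nucleic acid receptors to endosomes, rose from 31.8 ± 3.92 to 63.1 ± 4.14 CPM (SD, n = 4), by 0.99 ± 0.09 on the log2 scale (adjusted p = 2.13e-05). Ly96 encodes MD-2, the subunit with which TLR4 binds lipopolysaccharide. It had an FPKM of 7.99 ± 0.889 in Control and 10.02 ± 0.788 in HMF (SD, n = 4) and rose by 0.37 ± 0.12 on the log2 scale (adjusted p = 0.0387), a call lost in 6 of the 8 fits that leave out 1 library (highest adjusted p = 0.108). Cd14, whose product hands lipopolysaccharide to that complex, had 1 to 11 counts per library. Ticam2, the adaptor gene that links TLR4 to TRIF, had no count in any library. Hsp90b1, a chaperone gene that Toll-like receptors need for folding, fell by 0.27 ± 0.08 (adjusted p = 0.0282). Its call was lost without HMF 2 (adjusted p = 0.0856) and without HMF 3 (0.0581). Tlr1 fell from 1.89 ± 0.385 to 0.866 ± 0.446 CPM (SD, n = 4; log2 fold change -1.12 ± 0.32, adjusted p = 0.0253). The groups overlapped for Tlr1, and its call was also lost in 6 of those 8 fits, with an adjusted p of up to 0.0683. With 7 to 22 counts in HMF, Tlr1 would not have passed the count filter on its HMF libraries alone.

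Among the adaptors Myd88 rose more than 2-fold. Its level was 18.0, 18.3, 16.2 and 16.9 CPM in Control 1 to 4 and 37.2, 39.8, 39.6 and 48.4 CPM in HMF 1 to 4. The groups were far apart, and HMF 4 was again the highest. The log2 fold change was 1.25 ± 0.09 (SE, n = 4 per group; adjusted p = 3.81e-06), and 1.16 without HMF 4. Myd88 lies on chromosome 9 and overlaps Acaa1a, a peroxisomal thiolase gene on the opposite strand, at 290 of its 2576 exonic bases (11.3%). Acaa1a had more counts, with 114 CPM in Control and 132 in HMF, and rose by 0.21 ± 0.06 (adjusted p = 0.02). Whether counting used strand is not given in the sources used here, so reads from the shared bases cannot be told apart, and their part in the rise of Myd88 was not tested.

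Ticam1, the TRIF gene, rose by much less. Its level was 35.6, 36.0, 46.6 and 43.5 CPM in Control 1 to 4 and 51.8, 55.5, 53.6 and 50.2 CPM in HMF 1 to 4. Control 3 and Control 4 lay between the other Control libraries and HMF, and the groups did not overlap. The log2 fold change was 0.38 ± 0.09 (SE, n = 4 per group; adjusted p = 0.0109). Tirap, the bridging adaptor gene, was the lowest of the 10 genes per length in either group. It had 13.5, 11.2, 11.5 and 11.9 CPM in Control 1 to 4 and 14.05, 11.3, 12.7 and 12.3 CPM in HMF 1 to 4, so the groups overlapped. Its log2 fold change was 0.06 ± 0.11 (adjusted p = 0.71), with a 95% interval of -0.17 to 0.29.

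The levels of the MyD88 and TRIF genes drew closer. The ratio of Myd88 to Ticam1 FPKM was 0.589, 0.589, 0.404 and 0.453 in Control 1 to 4 and 0.834, 0.832, 0.859 and 1.12 in HMF 1 to 4. It was higher in 4 of 4 HMF libraries, by 0.85 on the log2 scale in the mean (exact permutation test over libraries, two-sided, p = 0.0286, adjusted 0.0286, the smallest the design allows). Only in HMF 4 did Myd88 exceed Ticam1.

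**Figure D2:**
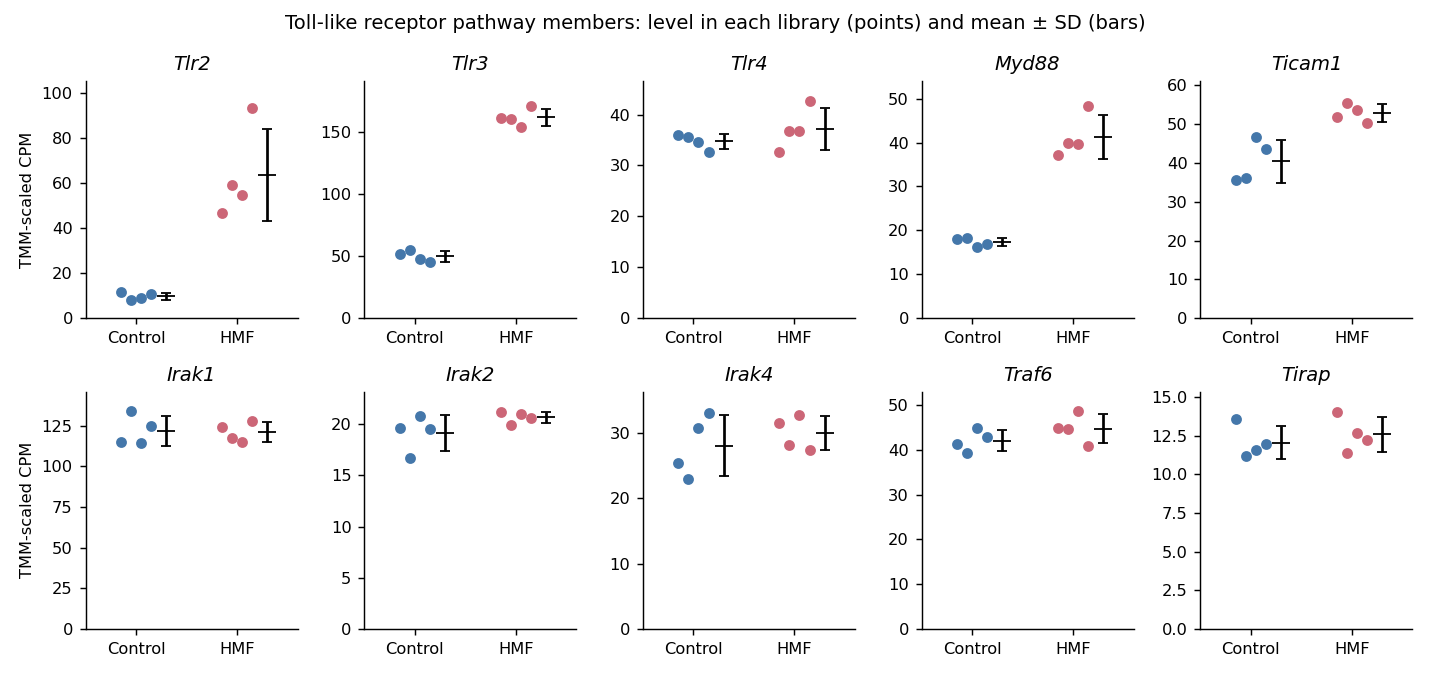
TMM-scaled CPM of the 10 genes in each library, with points for libraries and bars for the mean ± SD of 4 libraries per group, on axes that start at 0. Tlr2, Tlr3, Myd88 and Ticam1 are separated between the groups, and the other 6 genes overlap.

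None of the receptor-proximal kinases passed the test, nor did Traf6. Irak1, the kinase gene with the highest level, had 114 to 134 CPM in Control and 115 to 128 CPM in HMF, and its log2 fold change was -0.01 ± 0.07 (adjusted p = 0.94; 95% interval -0.16 to 0.14), or -0.03 without HMF 4. Irak4, which encodes the kinase that starts the complex, spread widely within Control, at 25.4, 23.0, 30.8 and 33.2 CPM in Control 1 to 4. HMF lay at 27.4 to 32.7 CPM inside that range, with a log2 fold change of 0.09 ± 0.12 (adjusted p = 0.617; 95% interval -0.17 to 0.35). Irak2, which sustains the later phase of the signal, had 16.7 to 20.8 CPM in Control and 19.9 to 21.2 CPM in HMF (0.11 ± 0.09; adjusted p = 0.402; 95% interval -0.08 to 0.30). Traf6 had 39.3 to 44.9 CPM in Control and 40.8 to 48.6 CPM in HMF (0.09 ± 0.07; adjusted p = 0.421; 95% interval -0.07 to 0.25). All 4 of these intervals end below a log2 fold change of 0.35, whereas that of Myd88 begins at 1.04. Irak3, which encodes the inhibitory kinase IRAK-M, had no count in any library. Irak4 and Tirap overlap abundant genes on the opposite strand, Twf1 at 7.87% and Srpr at 0.791% of their exonic bases.

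In all, 4 of the 10 genes rose and none fell, against 13.7% and 13.0% of all tested genes. At an unadjusted p below 0.05, and by DESeq2, none fell either. The groups of libraries did not overlap for the same 4, against 29.1% of tested genes, and HMF was the higher group for each of them, against 14.7%. The median log2 fold change of the 10 was 0.10, against -0.02 over all tested genes. All 10 passed the filter on low counts.

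**Figure D3:**
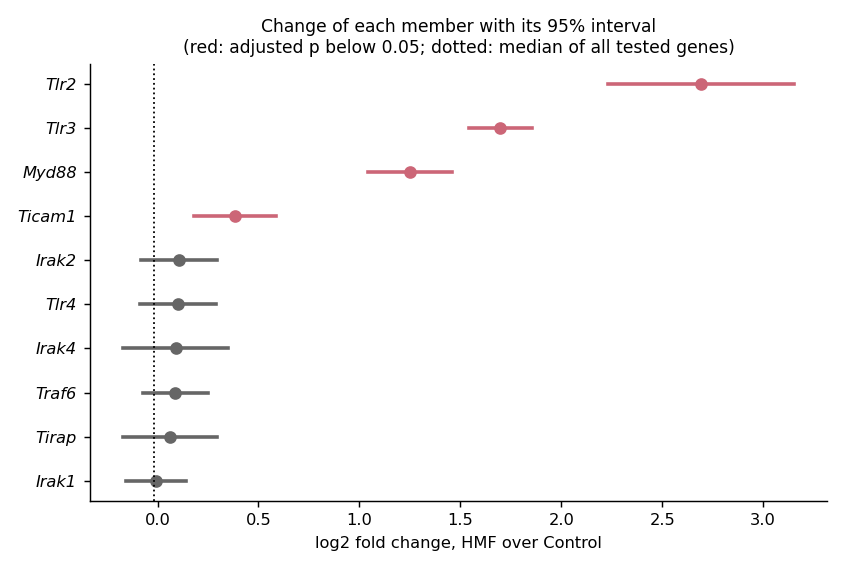
Log2 fold change of each gene, HMF over Control, with its 95% interval, in red where the adjusted p was below 0.05, and a dotted line at the median of all tested genes. Tlr2, Tlr3, Myd88 and Ticam1 stand to the right of 0, and the intervals of the other 6 genes include it.

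Per length, the order of the 10 genes changed between the groups. In Control Irak1 was highest at an FPKM of 26.2 ± 1.89, followed by Ticam1 (13.7 ± 1.97), Tlr3 (9.71 ± 0.777), Myd88 (6.84 ± 0.323) and Tlr4 (6.34 ± 0.248; SD, n = 4 each). Irak4 and Traf6 came next, and each of Myd88, Tlr4, Irak4 and Traf6 overlapped its neighbour. Irak2 came next at 4.41 ± 0.428. Its range did not overlap that of Traf6 but overlapped that of Irak4 above and of Tlr2 below (3.30 ± 0.509), which in turn overlapped Tirap (2.48 ± 0.211). In HMF Tlr3 took the first place at 30.5 ± 0.955, clear of Irak1 at 25.3 ± 1.04. Tlr2 followed at 20.7 ± 6.42, ahead of Ticam1 (17.4 ± 0.843) and Myd88 (15.7 ± 1.71). Neighbours from Irak1 to Myd88 in that order overlapped, and all 4 were above Tlr4 (6.57 ± 0.674). Tirap stayed last at 2.51 ± 0.241.

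The promoter windows of the 4 genes that rose are shown because NF-kB and interferon response motifs were searched in them. RefSeq promoter windows on GRCm38.p6, 250 bases before to 50 after the annotated start site, were found for 9 of the 10 genes. Windows are printed 5′ to 3′ in the direction of the gene. Capitals mark matches, on either strand, to the NF-kB consensus (in Tlr2 and Tlr3) or to the core of the interferon-stimulated response element (GAAA and GAAA with 2 bases between) and TTCNNNGAA, a STAT motif (in Myd88, where they overlap). The windows lie on the minus strand at chr3:83841559-83841858 (Tlr2), chr8:45410331-45410630 (Tlr3) and chr9:119339969-119340268 (Myd88), and that of Ticam1, with no capital, at chr17:56276718-56277017.
Tlr2: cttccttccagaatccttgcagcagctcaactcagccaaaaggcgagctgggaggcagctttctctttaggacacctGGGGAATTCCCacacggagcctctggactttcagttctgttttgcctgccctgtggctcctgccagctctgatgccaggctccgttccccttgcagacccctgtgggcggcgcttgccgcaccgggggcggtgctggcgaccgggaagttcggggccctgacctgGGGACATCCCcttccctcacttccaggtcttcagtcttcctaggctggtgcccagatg
Tlr3: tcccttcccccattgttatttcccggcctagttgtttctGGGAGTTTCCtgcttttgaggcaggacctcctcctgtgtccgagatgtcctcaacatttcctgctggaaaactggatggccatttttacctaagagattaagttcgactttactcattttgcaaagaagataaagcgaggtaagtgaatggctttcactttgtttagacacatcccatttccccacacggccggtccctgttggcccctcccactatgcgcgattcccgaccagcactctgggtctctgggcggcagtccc
Myd88: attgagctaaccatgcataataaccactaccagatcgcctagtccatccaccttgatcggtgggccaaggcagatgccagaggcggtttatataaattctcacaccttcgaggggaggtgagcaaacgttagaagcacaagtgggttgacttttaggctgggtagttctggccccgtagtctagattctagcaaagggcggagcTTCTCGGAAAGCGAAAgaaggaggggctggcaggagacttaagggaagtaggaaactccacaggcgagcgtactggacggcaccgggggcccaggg
Ticam1: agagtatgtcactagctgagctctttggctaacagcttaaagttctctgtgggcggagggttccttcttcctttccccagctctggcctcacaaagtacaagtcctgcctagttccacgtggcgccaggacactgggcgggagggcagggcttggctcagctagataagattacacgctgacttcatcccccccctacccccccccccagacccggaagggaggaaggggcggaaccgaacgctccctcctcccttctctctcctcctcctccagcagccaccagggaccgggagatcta

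Among the 9 genes with a window, the NF-kB consensus was found in 2, Tlr2 and Tlr3, against 5.14% of 27025 genes with promoter windows. Tlr2 held it at 2 separate places, where overlapping matches begin 173 and 172 bases before the start site (GGGGAATTCC and GGGAATTCCC) and another begins 8 bases before it (GGGACATCCC). In Tlr3 it begins 211 bases before the start (GGGAGTTTCC). The interferon-stimulated response element core was found in Myd88 alone of the 9, as GAAAGCGAAA beginning 40 bases before the start, against 3.99% of genes. Only this exact pattern was searched, so variants of the element in the other windows, that of Tlr3 included, would not be counted. The STAT motif was also found in Myd88 alone, and 1 of 9 is near the 9.55% of all genes that hold it. A shorter NF-kB motif, GGG and CC with 5 bases between, occurred in 8 of the 9, all but Myd88, and also in 53.5% of all genes. The NF-kB consensus was searched only after this shorter motif had been seen. Ticam1 held that shorter motif only. These matches describe letters in the windows and do not show binding.

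**Figure D4:**
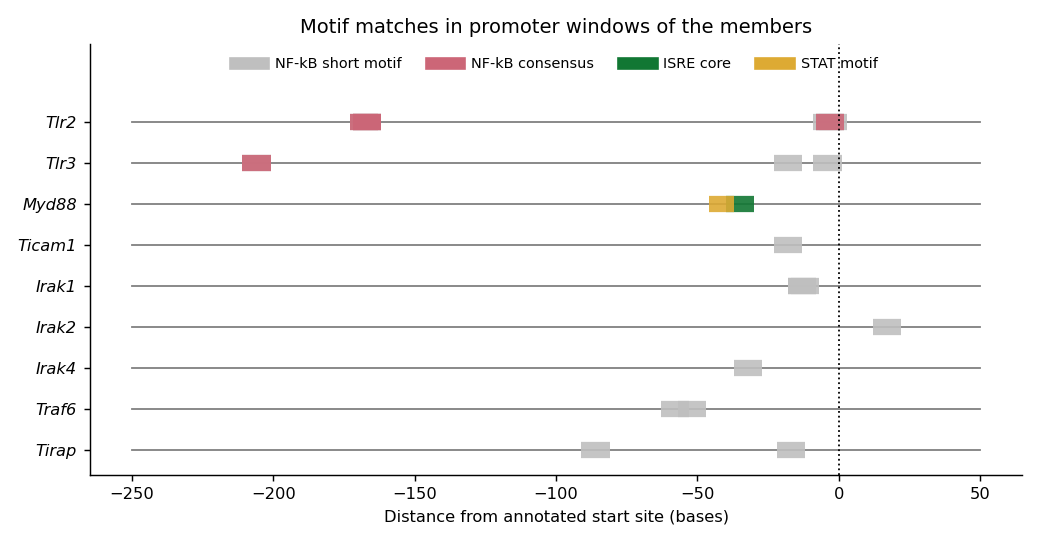
Motif matches in the promoter windows of 9 genes, the first window for a gene with several, by distance in bases from the annotated start site (dotted line). The NF-kB consensus (red) is seen in Tlr2 and Tlr3, the interferon-stimulated response element core (green) and the STAT motif (yellow) in Myd88, and the shorter NF-kB motif (grey) in most genes.

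The other pathway genes were taken by role, in lists chosen with earlier results of these data known. The 101 other pathway genes listed by role included 66 that passed the count filter. Of these, 38 rose (57.6%) and 4 fell (6.06%), against 13.7% and 13.0% of all tested genes. The counts by list below stand against the same shares and are descriptive, because of how the lists were chosen. The falls were Tlr1, Hsp90b1, Hmgb1 and Hmgn1, and their number was 2 without Control 2, HMF 1 or HMF 2 and 1 without HMF 3.

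Of 16 tested relay genes 7 rose and none fell, with a median log2 fold change of 0.19. The number of rises was 4 without Control 3, 4 with the replicate number as a block and 3 with limma on log2(FPKM + 1). Azi2, which encodes a TBK1 adaptor, rose by 0.67 ± 0.07 (adjusted p = 5.72e-05), Ikbke, a TBK1-related kinase gene, by 0.48 ± 0.08, and Tbk1 by 0.32 ± 0.06 (adjusted p = 0.0024). Traf3, which links TRIF to TBK1, rose by 0.18 ± 0.06 (adjusted p = 0.0421), a call lost in 7 of the 8 fits without 1 library (adjusted p up to 0.102). Among 4 tested adaptor and IRAK partner genes only Peli1, a ubiquitin ligase gene that acts with IRAK1, passed, rising by 0.30 ± 0.07 (adjusted p = 0.00736).

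Of 9 tested transcription factor genes 7 rose, with a median of 0.58. Irf5, which acts with MyD88, rose from 0.903 ± 0.450 to 9.18 ± 3.04 CPM (SD, n = 4), by 3.34 ± 0.33 on the log2 scale (adjusted p = 3.02e-05). With 8 to 26 counts in Control, Irf5 would not have passed the count filter on its Control libraries alone. Irf7, another partner of MyD88, rose from 212 ± 12.0 to 658 ± 32.7 CPM, by 1.63 ± 0.06 (adjusted p = 2.38e-08), and Fos by 0.997 ± 0.17 (adjusted p = 0.00156). Irf3, the factor that TRIF activates, did not pass, at 0.05 ± 0.06 on the log2 scale (adjusted p = 0.565).

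Among 13 tested inhibitors of the pathway 9 rose and none fell, with a median of 0.77. Nfkbia and Nfkbie, which encode inhibitors of NF-kB, each rose by 1.83 (SE 0.13 and 0.12, adjusted p = 2.64e-06 and 9.88e-07). Tnfaip3, which encodes the deubiquitinase A20, rose by 1.73 ± 0.20, Trafd1 by 1.61 ± 0.08 and Trim30a by 1.54 ± 0.07. Of 10 listed genes of the IL-1 and IL-18 system, which also signals through MyD88, 3 were tested and all 3 rose: Il33 by 2.40 ± 0.29, Il18 by 1.06 ± 0.14 and the co-receptor gene Il1rap by 0.84 ± 0.13. The receptor genes Il1r1 (0 to 2 counts) and Il18r1 (no count) were below the filter. So was the receptor gene Il1rl1, listed among the inhibitors, with no count in any library.

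Of 15 listed textbook target genes of the receptors 10 were tested, and 9 of these rose, with the largest median of the lists, 2.61. The other 5 were below the count filter, and with no count filter 11 genes of the list rose. Some tested genes, such as Ifnb1 with 8 to 17 counts in Control, would not have passed the filter on their Control libraries alone and enter the median. Tnf went from 2.25, 1.78, 1.71 and 1.63 CPM in Control 1 to 4 to 16.9, 26.9, 18.0 and 41.9 CPM in HMF 1 to 4, a log2 fold change of 3.82 ± 0.32 (adjusted p = 7.84e-06). Cxcl10 and Ccl5, both chemokine genes, rose by 3.39 ± 0.22 and 2.77 ± 0.17. Ifnb1, which encodes interferon beta, rose from 0.748 ± 0.219 to 4.69 ± 2.87 CPM (SD, n = 4), by 2.65 ± 0.42 (adjusted p = 8.45e-04) and by 2.10 without HMF 4. Of 10 listed candidate danger ligands 5 were tested. Among these none rose and 2 fell, with a median of 0.14 and 3 of 5 above 0, and with no count filter 1 of the list rose. These are transcript levels and do not measure released protein. Hmgb1 fell by 0.33 ± 0.08 (adjusted p = 0.00846) and Hmgn1 by 0.24 ± 0.08 (adjusted p = 0.0441). The call of Hmgn1 was lost in 5 of the 8 fits without 1 library (adjusted p up to 0.114).

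**Figure D5:**
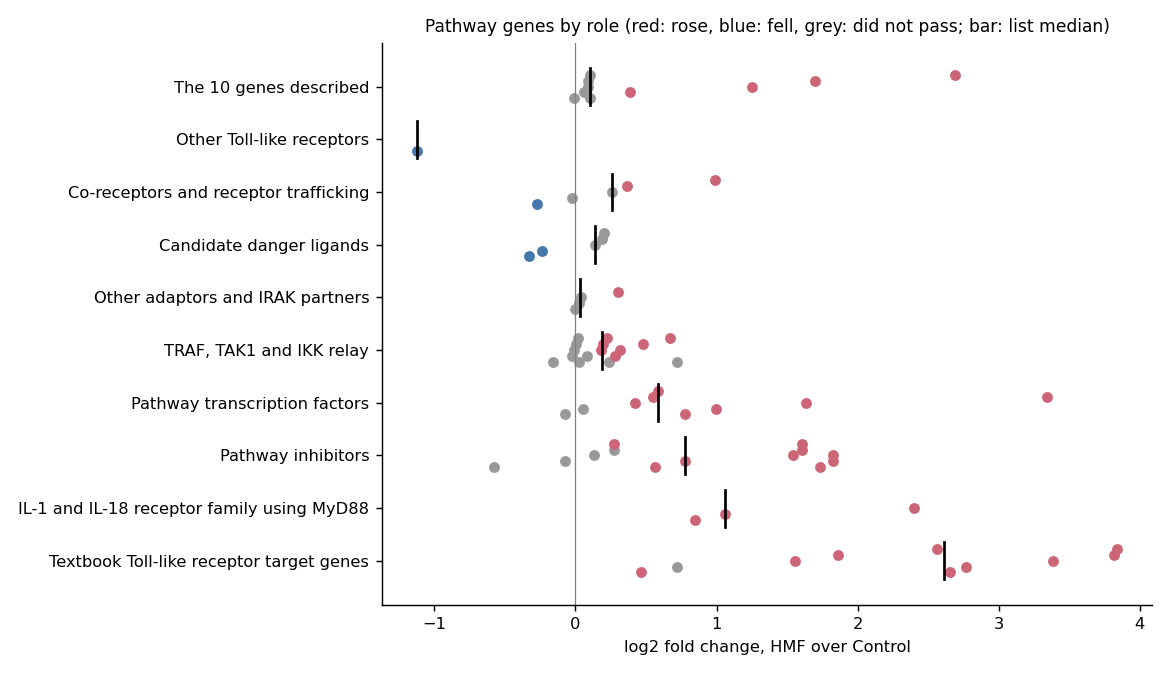
Log2 fold change, HMF over Control, of each tested gene by its role in the pathway, in red where it rose, blue where it fell and grey where it did not pass, with a bar at the median of the list. The median is 0.19 in the relay and 2.61 among the textbook target genes, the 10 genes described have a median of 0.10, and the list of other receptors, with 1 tested gene, lies at -1.12.

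The genes most like Tlr3 and Myd88 over the 8 libraries were found among 10931 tested genes whose log2 CPM averaged 1 or more. For Tlr3 they were Tgtp2, an interferon-inducible GTPase gene (Pearson r of log2 CPM 0.9997), Trim30d (0.9994) and Trim30a (0.9993). For Myd88 they were Xdh, which encodes xanthine dehydrogenase (0.9991), the chemokine gene Ccl5 (0.9986) and Max, which encodes the partner of MYC (0.9981). The 8 points form 2 separate groups, so these values describe likeness only and carry no test. Tgtp2 and the Trim30 genes have near-identical copies, and how their reads were divided is not given.

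Melanoma genes were abundant in both groups, although 4 of 7 melanoma markers fell. Those were the pigment enzyme genes Tyr (by 0.65 ± 0.19, adjusted p = 0.0283), Dct (by 0.37 ± 0.11, adjusted p = 0.0244) and Tyrp1 (by 0.32 ± 0.09, adjusted p = 0.0183), and Mitf, the melanocyte transcription factor gene (by 0.55 ± 0.16, adjusted p = 0.0285; edgeR log2 scale). Sox10 had 767 CPM in Control and 770 in HMF, and Mlana 522 and 499, and neither passed. The part of these falls in the results above was not tested. Of 12 macrophage and dendritic cell markers, Cd68, Fcer1g and Lyz2 passed the count filter, with 100 to 268, 33 to 79 and 13 to 28 counts per library. Adgre1, Itgam and Flt3 had no count in any library, and Ptprc, the pan-leukocyte gene, had 2 counts in HMF 2 and none elsewhere. The summed level of the 12 was 13.0 to 15.8 CPM in Control and 17.1 to 18.9 CPM in HMF, with Cd68 higher (8.35 ± 1.80 and 13.8 ± 0.633 CPM, adjusted p = 0.00371) and Fcer1g lower in HMF (adjusted p = 0.0319). Lyz2 did not pass. The part of the summed level in the rises of Tlr2 and the other genes was not tested. The 7 T and B cell markers summed to 0.769 to 1.56 CPM in Control and 0.354 to 1.16 CPM in HMF, and Cd3e, Cd3d, Cd8a and Ms4a1 had no count. Fibroblast markers summed to 28.0 to 43.6 CPM and 15.2 to 19.4 CPM, and endothelial markers to 11.9 to 15.4 CPM and 10.2 to 12.6 CPM. In these bulk samples a change in the number of cells that express a gene and a change per cell cannot be told apart.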

How the data were processed

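The deposited table holds raw read counts per gene and, for the same 8 libraries, FPKM values made by the authors. Trimmomatic, HISAT2 2.0.5, HTSeq, DESeq2 and the build mm10 are named in the submitters' processing notes. What each did, which annotation was used and whether counting used strand is not given in the sources used here. Deposited FPKM of the 10 genes use lengths equal to their exonic bases in a GRCm38 annotation. The table's own positions could not be tied to a build and are not printed; chromosome positions of promoter windows and the sequences come from RefSeq (GRCm38.p6). Groups were read from the sample titles. Genes kept by filterByExpr were tested with edgeR 4.0.16 (R 4.3.3), TMM scaling, group as the only term, and Benjamini-Hochberg adjustment over 15082 genes at 0.05 as the threshold. Each SE was taken as the size of the fold change (log2) divided by the square root of its F statistic. The test was tested on simulated data. Every pair of libraries differed by more than sampling noise (chi-square over degrees of freedom at least 2.2). Within Control this value was 8.55 for libraries 1 and 2 and 2.20 for libraries 3 and 4, but 15.65 to 18.79 across these pairs. Within HMF it was 16.24 to 31.93 for pairs with HMF 4 and 3.96 to 6.94 for the others. The libraries of a group may therefore not be 4 independent units, and the source of this pattern was not tested.

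The genes, the role lists and the tests were chosen with earlier results of these data known. Named genes are the 10, every other Toll-like receptor, up to 3 genes per list with the smallest adjusted p below 0.05, a preset group (Cd14, Ly96, Unc93b1, Ticam2, Irak3, Traf3, Tbk1, Tnfaip3, Nfkbia, Irf3, Irf7, Ifnb1), and the 3 genes most correlated with the receptor and the adaptor of smallest p. Marker genes, Acaa1a, Twf1, Srpr, Il1r1, Il18r1 and Il1rl1 were named outside that rule, after their values were seen. Alternatives were RLE, upper quartile and library-size scaling, other count filters, a replicate block, fits without 1 library, DESeq2 1.42.0, limma 3.58.1 (voom, and log2 FPKM with pseudocounts of 1 and 0.1), and a threshold of 0.01. The NF-kB consensus was searched after the shorter motif had been seen.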

Additional observations from a re-analysis of the deposited data

Results flagged for a closer look

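The 41 tested genes of the naming rule above gave 82 groups of 4 libraries, in Control and in HMF. Genes named outside that rule, such as the markers, were not screened. By Dixon's criterion at the 95% level, 4 groups held a library far from the other 3, where chance alone gives about 1 in 20. All 4 were HMF 4. Ifnb1 had 8.98 CPM there against 3.19 to 3.35 CPM in the other HMF libraries. Tgtp2 had 275 CPM against 247 to 251 CPM, and Trim30d 122 CPM against 107 to 108 CPM. Unc93b1 was lower in HMF 4, at 57.0 CPM against 64.9 to 65.8 CPM. None of the 10 genes themselves was set apart in this way.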

How the results depend on the processing

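Tlr2, Tlr3 and Myd88 rose under all 19 alternatives, with log2 fold changes of 2.30 to 2.81, 1.56 to 1.75 and 1.09 to 1.30. Ticam1 rose by 0.33 to 0.46 and passed under 18, but not at an adjusted p below 0.01 (0.38, adjusted p = 0.0109). The 6 genes that did not pass stayed so. Irak1 changed sign near 0 without Control 2 (0.0437), Control 4 (0.00097), HMF 2 (0.0064) and HMF 3 (0.02), between -0.0395 and 0.0437 over the fits without 1 library. At 0.01, the number of genes changed, HMF against Control, was 2288 (1239 rises and 1049 falls) against 4030 at 0.05, and 1 pathway gene fell against 4. Falls of pathway genes were 1 to 3 without 1 library. The split of all calls was 51.4% rises, and 41.7% with library size alone and 41.3% with limma on log2(FPKM + 1); library size alone moved the median log2 fold change to -0.06. The same replicate numbers occur in both groups, but same-numbered libraries did not deviate together (correlations -0.319 to 0.225, 1 of 4 best with its own number). With the replicate number as a block 4 of the 10 genes rose again, 1463 genes rose, 1322 fell, and 2 pathway genes fell. Paired by number, the Myd88 to Ticam1 ratio differed by 0.85 (adjusted p = 0.125) and the Tlr3 to Tlr2 ratio by -0.96 (adjusted p = 0.125), the smallest p that 4 pairs allow. Without 1 library they were 0.74 to 0.93 and -1.085 to -0.781, where the smallest p possible is 0.0571. In the ratio of counts + 1 the calls stood. The NF-kB motif count of 8 genes was 2 with the consensus. The number of receptors expressed was 3 at 10 counts and 4 at an FPKM of 0.1, Tlr1 being added. Depth limits statements on receptors with few counts.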
